A study of Cercocebus atys with 16 samples.

Results

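The genes described here encode the aminoacyl-tRNA synthetases, and they were followed in double-negative T cells of 4 sooty mangabeys (Cercocebus atys). These blood cells carry CD3 but neither of the coreceptors CD4 and CD8. The list holds 36 genes, 20 with cytosolic names and 16 mitochondrial genes, whose names end in ARS2. A gene was included where the gene name column of the array files carries its symbol, and this held for 28 of the 36 genes, 17 cytosolic and 11 mitochondrial, with 47 probes among the 43603 distinct probes of the array. For each animal, some cells received anti-CD3 (3 mg/ml in the labels) and anti-CD28 (1 mg/ml) over 4 hours, and others stayed unstimulated. FBR and FTV were labelled CD4 low, and FNV and FKN CD4 normal. Every animal carried simian immunodeficiency virus (SIV), so no group was free of infection. The cells came from magnetic bead isolation at a purity above 98% and had rested overnight, and no label says that animals were pooled. The 8 ratio arrays set stimulated against unstimulated RNA of an animal in both dye orientations, and the other 8 of the 16 arrays were self-self hybridisations of one RNA. On 1 ratio array of FNV the title and a channel label disagree on which dye held the stimulated RNA. The title was followed, and the counts of synthetase genes that changed were also made without that array.

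Aminoacyl-tRNA synthetases attach each amino acid to its own tRNA, the step that fixes the genetic code before translation. They fall into a pair of unrelated structural classes, I and II. In human cells several cytosolic members sit in the multisynthetase complex around the scaffold proteins AIMP1, AIMP2 and EEF1E1, while the others are free. Most mitochondrial enzymes have nuclear genes of their own, but in human cells KARS and GARS serve both compartments. T cells that leave quiescence enlarge and raise their protein synthesis, which needs charged tRNA.

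The arrays were designed on the rhesus macaque, and the probes are 60 bases long. One probe decides what can be said of EPRS, the synthetase for glutamate and proline, so its first 30 bases are shown beside those of a pair of probes with the gene name LOC706899. The array files carry 2 editions of the probe annotation. Both editions give the first probe the gene name EPRS, but its description is glutamyl-prolyl-tRNA synthetase in the newer edition and glutaminyl-tRNA synthetase, the product of QARS, in the older. The older edition describes both LOC706899 probes as glutamyl-prolyl-tRNA synthetase, and the newer describes the probe at 150420256 as a bifunctional aminoacyl-tRNA synthetase and the other as unknown. All sequences are from the array files, 5′ to 3′, in lower case throughout, and positions are on the rheMac2 build; the strand was not analysed here.
EPRS-named probe, chr2:87356306-87356365: tacctcatcctggaggttggggctaccttc
LOC706899 probe, chr1:150420256-150420315: tgttcagattccattctgtggggaaattga
LOC706899 probe, chr1:150399881-150399940: tacaagtctttgataggagtagagtataag

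The files place the EPRS-named probe on chromosome 2 and both LOC706899 probes on chromosome 1. Within 300 kb of the EPRS-named probe, 10 other gene names have a place in the Caty_1.0 gene table of the sooty mangabey, and 9 of them stand within 10 genes of QARS, the gene of the synthetase for glutamine. The nearest probes with a described gene on either side are those described as ubiquitin specific peptidase 19, 15.1 kb away, and as glutamine-rich 1, 68.2 kb away. In the Caty_1.0 table, QARS lies between QRICH1 and USP19. EPRS lies elsewhere in that table, between BPNT1 and SLC30A10, with IARS2 as the next gene beyond BPNT1. The LOC706899 probes lie 181 and 201 kb from the probe that the files describe as IARS2.

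The same comparison was made for every member. Of the 27 members whose probe has at least 1 other gene name of the table within 300 kb, 26 shared a neighbour with their own gene in the Caty_1.0 table, and the exception was EPRS. Whether the EPRS-named probe measures EPRS was not tested further, and it is called the EPRS-named probe below. It shared no run of 16 or more bases with any other probe on the array. Such runs were found in 4 of the 56 synthetase probes searched, each with 1 other probe. Except for the EPRS-named and LOC706899 probes, other probes of the same gene were left out of this search.

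The share of spots with signal well above background ran from 33.3% to 64.8% on the 4 FNV arrays, scanned in an earlier batch, and from 57% to 65% on the 12 later ones. In FNV the self-self array of stimulated RNA alone was that dim, at 33.3% and 37.6% in its channels, against 52% or more on the other FNV arrays. It enters the stimulated levels of FNV but not the ratios. Batch and animal cannot be told apart for FNV. All 17 cytosolic members and 10 of the 11 mitochondrial members were well above background in all 16 channels of the ratio arrays, and EARS2 was in 6 of 8 channels of each condition. The 7 T cell markers averaged 10.8 to 11.84 (log2 signal) per animal in stimulated and 10.6 to 11.76 in unstimulated cells. CD4 and CD8B, which the isolation should remove, averaged 8.35 to 8.88 in stimulated and 8.22 to 8.80 in unstimulated cells, and both were well above background in all 16 channels. Precision rests on 4 animals, and over all tested features the SD of the log2 ratio among them had a median of 0.16.

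The first comparison asked how synthetase transcripts differed between stimulated and unstimulated cells of the same animal. Most cytosolic synthetase genes rose. Of 17 tested, 15 were higher and 1, the EPRS-named probe, was lower, while VARS did not pass (limma, adjusted p under 0.05 over all features). Among all 22894 tested features, 19.1% were higher and 21.0% were lower. The median over the cytosolic members of the mean log2 ratio of stimulated over unstimulated was 0.94, against -0.01 over all tested features. At least 2-fold rises were found in 8 of the 17, against 3.59% of all features.

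Mitochondrial synthetase genes went both ways. Of 11 tested, 6 were higher, 3 were lower and 2 did not pass, and their median log2 ratio was 0.31. Of all features, 19.1% were higher and 21.0% lower, so the number that fell is near the background share. At the normexp offset of 50, none of the 11 reached a 2-fold rise, against 3.59% of all features. That offset is a constant added to every signal that shrinks the ratios of dim probes. The highest of the 11, LARS2, averaged 0.80. With the scanner software's ratio EARS2 averaged 1.19 and passed 2-fold (limma adjusted p = 0.00715), and in the authors' deposited table it had 0.76 in FBR, 1.64 in FTV and 1.10 in FKN, with no value for FNV. In bulk RNA, fewer cells of a type and less RNA per cell cannot be told apart, for these and all other members. In the same comparison, 0 of 7 measured monocyte markers were higher and 4 were lower, with a median log2 ratio of -0.87. Their mean log2 signal per animal ranged from 8.37 to 10.28 in stimulated and from 8.81 to 11.64 in unstimulated cells, and all 7 were well above background in every channel. Of 3 tested B cell markers, 0 were higher and 2 were lower, CD79B at -2.60 and MS4A1 at -1.15 (median of the 3, -1.15). The mean log2 signal of 4 B cell markers per animal ranged from 7.32 to 8.74 in stimulated and from 8.14 to 9.83 in unstimulated cells. Among NK cell and platelet markers, 0 were higher and 0 lower. Of 3 erythroid markers, 0 were higher and 1, HBA2, was lower (-0.23). Erythroid markers averaged 9.44 to 11.71 (log2 signal) per animal in stimulated and 9.21 to 12 in unstimulated cells. The part of the signals of these other cell types in the synthetase results was not tested.

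**Figure D1:**
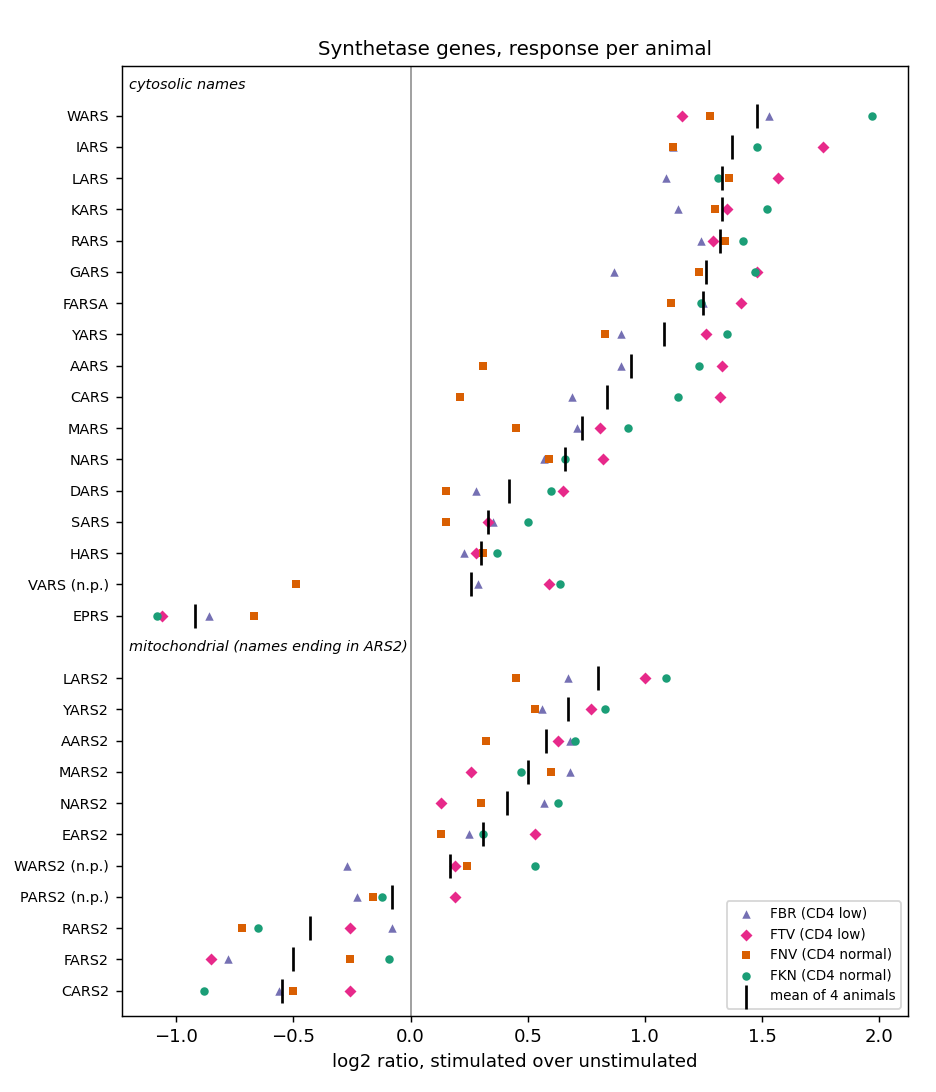
Log2 ratio of stimulated over unstimulated signal for each tested synthetase gene in each of 4 animals, with a black bar at the mean; n.p. marks genes that did not pass the limma test. The 15 cytosolic genes that rose lie right of 0 in every animal, the EPRS-named probe lies left of 0 in every animal, and the mitochondrial names spread from -0.55 to 0.80 in the mean.

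In the plot of responses by gene, the largest mean belonged to WARS (with the scanner software's ratio, LARS was higher, at 1.58 against 1.51), the tryptophanyl enzyme, a class I synthetase outside the multisynthetase complex whose human gene is induced by interferon gamma. Its log2 signal was 12.69, 12.53, 10.88 and 13.09 in stimulated cells of FBR, FTV, FNV and FKN, against 11.26, 11.43, 9.74 and 11.26 in unstimulated cells. The groups overlapped because both signals of FNV lay below those of the other animals, yet the ratio was above 0 in each animal. The log2 ratio was 1.53, 1.16, 1.28 and 1.97 in FBR, FTV, FNV and FKN, a mean of 1.48 ± 0.36 (SD, n = 4; 2.80-fold; limma adjusted p = 0.00158). Its 3 probes had means of 1.28 to 1.68, all above 0.

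The next 4 of the cytosolic genes, IARS, LARS, KARS and RARS, all belong to the multisynthetase complex in human cells. IARS, for isoleucine, had log2 signals of 11.16, 11.10, 10.88 and 11.22 in stimulated cells of FBR, FTV, FNV and FKN, against 10.05, 9.34, 9.85 and 9.74 in unstimulated cells. The 2 sets did not overlap. Its log2 ratio was 1.12, 1.76, 1.12 and 1.48 in FBR, FTV, FNV and FKN, with a mean of 1.37 ± 0.31 (SD, n = 4; limma adjusted p = 0.00144), and its 5 probes ranged from 0.99 to 1.37.

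LARS, for leucine, an enzyme also known in human cells as a leucine sensor of the mTORC1 pathway, had log2 signals of 10.26, 9.84, 9.28 and 10.08 in stimulated cells of FBR, FTV, FNV and FKN, against 9.27, 8.44, 7.94 and 8.82 in unstimulated cells. The lowest stimulated value, in FNV, lay just above the highest unstimulated value, in FBR. Its log2 ratio was 1.09, 1.57, 1.36 and 1.31 in FBR, FTV, FNV and FKN, a mean of 1.33 ± 0.20 (SD, n = 4; limma adjusted p = 0.000747). The other LARS probe had a mean of 0.82, so the size depends on the probe.

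KARS, the lysyl enzyme of both cytosol and mitochondria, had log2 signals of 15.07, 15.08, 16.01 and 15.41 in stimulated cells of FBR, FTV, FNV and FKN, against 14.05, 13.84, 14.95 and 13.98 in unstimulated cells. FNV had the highest value in both conditions, and the groups did not overlap. Ratios on the log2 scale were 1.14, 1.35, 1.30 and 1.52 in FBR, FTV, FNV and FKN, a mean of 1.33 ± 0.16 (SD, n = 4; limma adjusted p = 0.000634).

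RARS, for arginine, varied least among these genes. It had log2 signals of 13.59, 13.26, 14.39 and 13.71 in stimulated cells of FBR, FTV, FNV and FKN, against 12.47, 12.07, 13.16 and 12.34 in unstimulated cells. Its log2 ratio was 1.24, 1.29, 1.34 and 1.42 in FBR, FTV, FNV and FKN, a mean of 1.32 ± 0.08 (SD, n = 4; 2.50-fold; limma adjusted p = 0.000562). The stimulated and unstimulated sets did not overlap.

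GARS, the glycyl enzyme of both compartments, FARSA, the alpha subunit for phenylalanine, and YARS, for tyrosine, also rose at least 2-fold, with mean log2 ratios of 1.26, 1.25 and 1.08. Smaller rises were found in AARS, for alanine (0.94), CARS, for cysteine (0.84), MARS, for methionine (0.73), NARS, for asparagine (0.66), DARS, for aspartate (0.42) and SARS, for serine (0.33). Levels in every stimulated animal lay above those of every unstimulated animal for 7 of the 17 cytosolic genes and 3 of the 11 mitochondrial genes, against 7.43% of all features. They lay below for 1 and 0, against 8.60%.

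HARS, for histidine, had the smallest rise of the cytosolic genes that passed. Its log2 signal was 11.05, 10.68, 10.34 and 10.80 in stimulated cells of FBR, FTV, FNV and FKN, against 10.83, 10.50, 10.10 and 10.54 in unstimulated cells, and the groups overlapped. Within animals the log2 ratio was 0.23, 0.28, 0.31 and 0.37 in FBR, FTV, FNV and FKN, a mean of 0.30 ± 0.06 (SD, n = 4; limma adjusted p = 0.00989).

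VARS, for valine, did not pass. It had log2 signals of 10.03, 9.46, 8.02 and 10.11 in stimulated cells of FBR, FTV, FNV and FKN, against 9.75, 8.81, 8.80 and 9.31 in unstimulated cells. FNV alone had the lower signal after stimulation. The log2 ratio was 0.29, 0.59, -0.49 and 0.64 in FBR, FTV, FNV and FKN, a mean of 0.26 ± 0.52 (SD, n = 4; limma adjusted p = 0.3485), and without FNV it was 0.51 (limma adjusted p = 0.00967).

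The EPRS-named probe had log2 signals of 13.08, 12.70, 13.66 and 12.77 in stimulated cells of FBR, FTV, FNV and FKN, against 13.93, 13.81, 14.44 and 13.92 in unstimulated cells. Every stimulated value was below every unstimulated one. Its log2 ratio was -0.86, -1.06, -0.67 and -1.08 in FBR, FTV, FNV and FKN, a mean of -0.92 ± 0.19 (SD, n = 4; 1.89-fold lower; limma adjusted p = 0.00149). In the authors' deposited table its mean was -0.95.

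**Figure D2:**
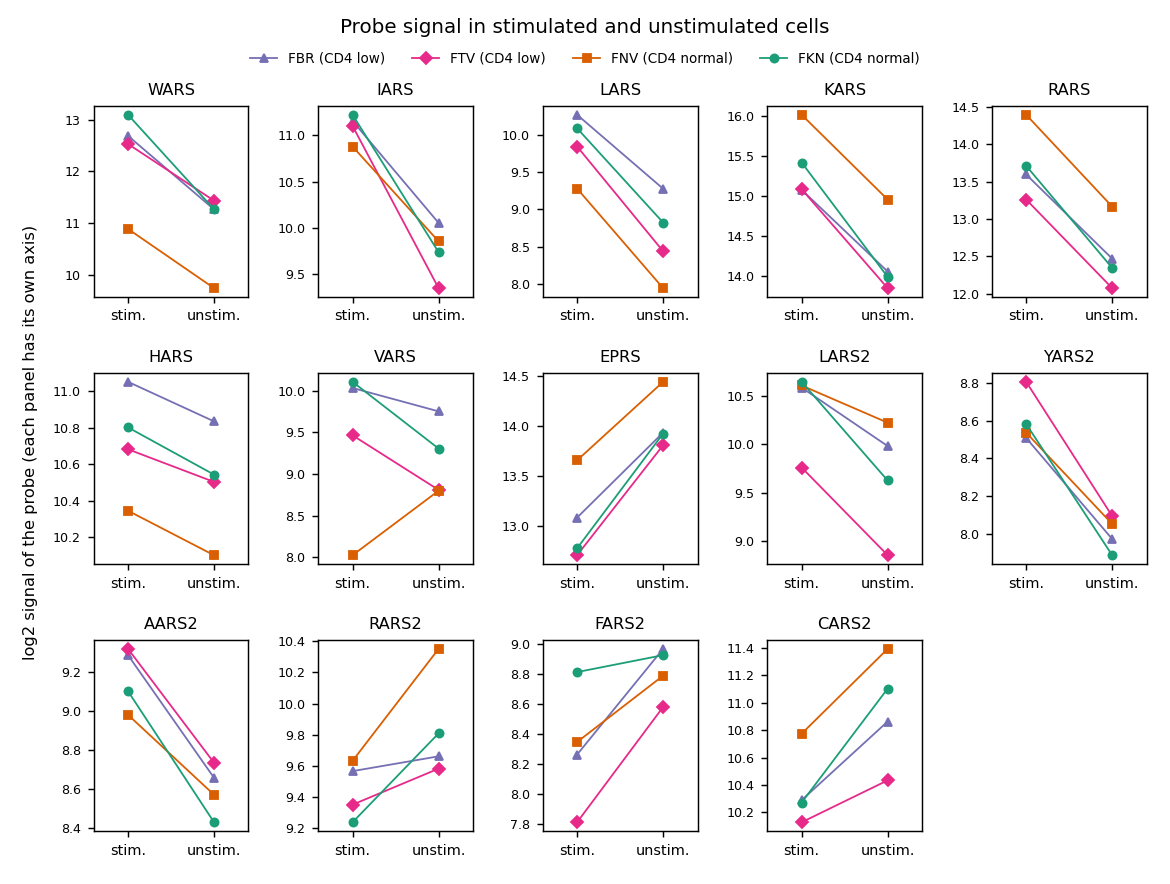
Log2 probe signal in stimulated and unstimulated cells of each animal for the 14 members described per animal, with a line joining the values of an animal and an axis of its own in each panel. Lines slope down to the right for genes with more signal after stimulation and up for the EPRS-named probe, RARS2, FARS2 and CARS2, and VARS slopes up in FNV alone.

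Probes that the gene-name rule leaves out were set beside these. The LOC706899 probe starting at 150420256 had log2 ratios of 1.51, 1.96, 1.09 and 1.77 in FBR, FTV, FNV and FKN, a mean of 1.58 ± 0.38 (SD, n = 4; limma adjusted p = 0.0015). The LOC706899 probe starting at 150399881 had 1.32, 1.77, 1.34 and 1.71 in the same order, a mean of 1.53 ± 0.24 (SD, n = 4; limma adjusted p = 0.000754). Both were above 0 in each animal, opposite in sign to the EPRS-named probe, and both sit next to the IARS2 position, where the Caty_1.0 table has EPRS.

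Of the 8 members without a probe under the rule, 5 were described by probes that carry no other member's or listed gene's name in the newer edition. FARSB, the beta subunit for phenylalanine, rose by 1.29 ± 0.18 on the log2 scale, close to the 1.25 ± 0.12 of its partner subunit FARSA (SD, n = 4). The 3 probes described as cytoplasmic threonyl-tRNA synthetase had means of 1.22 to 1.23, and all passed. VARS2, which the older edition of the annotation calls VARS, rose by 0.61, while IARS2 (0.24) and TARS2 (0.15) did not pass. QARS and HARS2 are described by probes with other gene names (EPRS, above, and DTD1, below). For SARS2 no probe was found by gene name or in the descriptions searched. With LOC706899 taken as EPRS, the EPRS-named probe counted as QARS and the DTD1-named probe as HARS2, 18 of 20 cytosolic genes were higher and 1 lower (median 1.16), and 7 of 15 mitochondrial genes were higher and 4 lower (median 0.24). With the EPRS-named and DTD1-named probes left out, the counts were 18 of 19 higher and 0 lower, and 7 of 14 higher and 3 lower. Both choices were made after seeing the data.

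**Figure D3:**
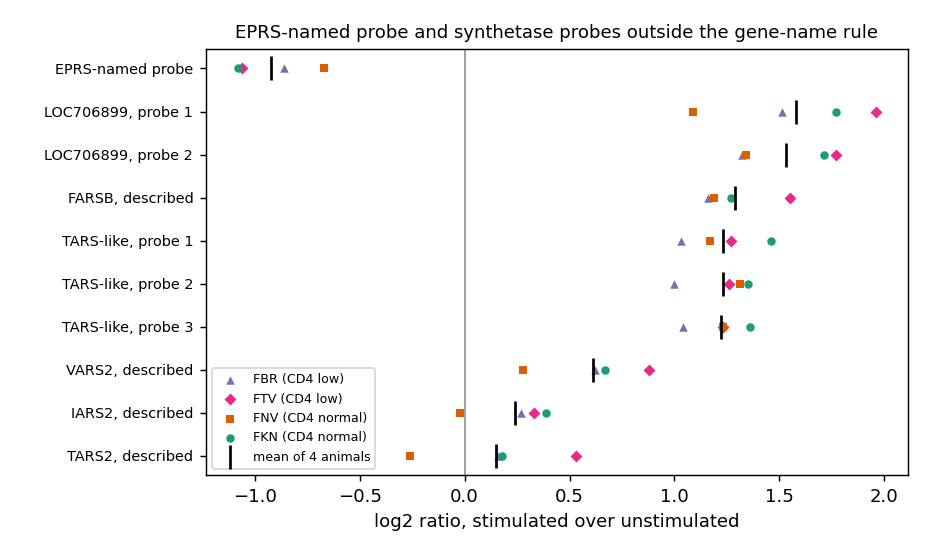
Log2 ratio of stimulated over unstimulated signal in each of 4 animals for the EPRS-named probe and for 9 synthetase probes outside the gene-name rule, with a black bar at the mean. The EPRS-named probe lies between -1.08 and -0.67, and the LOC706899 probes lie between 1.09 and 1.96.

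Among the mitochondrial genes, LARS2, the leucyl enzyme, had the largest mean at the offset of 50. The order depends on the processing: with the scanner software's ratio EARS2 (1.19) and YARS2 (0.91) lay above LARS2 (0.88), and in the authors' deposited table YARS2 (0.93) lay above LARS2 (0.86). Its log2 signal was 10.59, 9.76, 10.61 and 10.65 in stimulated cells of FBR, FTV, FNV and FKN, against 9.98, 8.85, 10.23 and 9.62 in unstimulated cells. FTV was low in both conditions and the groups overlapped. The log2 ratio was 0.67, 1.00, 0.45 and 1.09 in FBR, FTV, FNV and FKN, a mean of 0.80 ± 0.30 (SD, n = 4; 1.75-fold; limma adjusted p = 0.00608).

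YARS2, the tyrosyl enzyme, had log2 signals of 8.51, 8.81, 8.54 and 8.58 in stimulated cells of FBR, FTV, FNV and FKN, against 7.97, 8.09, 8.05 and 7.89 in unstimulated cells, with no overlap. The log2 ratio was 0.56, 0.77, 0.53 and 0.83 in FBR, FTV, FNV and FKN, a mean of 0.67 ± 0.15 (SD, n = 4; limma adjusted p = 0.00219). Of its 3 probes, the lowest mean was 0.37. AARS2, the alanyl enzyme, had 9.29, 9.32, 8.98 and 9.10 in stimulated cells of FBR, FTV, FNV and FKN, against 8.66, 8.73, 8.57 and 8.43 in unstimulated cells, also without overlap. Its log2 ratio was 0.68, 0.63, 0.32 and 0.70 in FBR, FTV, FNV and FKN, a mean of 0.58 ± 0.18 (SD, n = 4; limma adjusted p = 0.00476). MARS2 (0.50), NARS2 (0.41, or 0.66 with the scanner software's ratio) and EARS2 (0.31), the enzymes for methionine, asparagine and glutamate, also rose, while WARS2 (0.17) and PARS2 (-0.08), for tryptophan and proline, did not pass.

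The 3 mitochondrial genes that fell carry the enzymes for cysteine, phenylalanine and arginine. CARS2 had log2 signals of 10.29, 10.13, 10.77 and 10.27 in stimulated cells of FBR, FTV, FNV and FKN, against 10.86, 10.43, 11.39 and 11.10 in unstimulated cells. The groups overlapped, and the log2 ratio of -0.56, -0.26, -0.50 and -0.88 in FBR, FTV, FNV and FKN was below 0 in each animal (mean -0.55 ± 0.26, SD, n = 4; limma adjusted p = 0.0136).

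FARS2 had log2 signals of 8.26, 7.81, 8.35 and 8.81 in stimulated cells of FBR, FTV, FNV and FKN, against 8.97, 8.58, 8.79 and 8.93 in unstimulated cells. The fall was larger in the CD4-low animals, with log2 ratios of -0.78 in FBR and -0.85 in FTV, against -0.26 in FNV and -0.09 in FKN (mean -0.50 ± 0.38, SD, n = 4; limma adjusted p = 0.0481). RARS2 had 9.57, 9.35, 9.63 and 9.24 in stimulated cells of FBR, FTV, FNV and FKN, against 9.66, 9.58, 10.35 and 9.81 in unstimulated cells. Its fall was smaller in the CD4-low animals, with log2 ratios of -0.08 in FBR and -0.26 in FTV, against -0.72 in FNV and -0.65 in FKN (mean -0.43 ± 0.31, SD, n = 4; limma adjusted p = 0.0445).

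Several of these calls were lost when an animal was left out. Such a loss does not show that the call rests on that animal, because the fit also has fewer animals. RARS2 did not pass without FNV, FKN or FTV, FARS2 without FBR or FTV, and CARS2 without FBR. Among the genes that rose, CARS, DARS, SARS and EARS2 did not pass without FKN, FBR or FTV, AARS and NARS2 without FKN or FBR, and HARS without FKN. The count of cytosolic genes that rose was 10 without FKN, 11 without FBR, 12 without FTV and 16 without FNV. Without the FNV array whose labels disagree, EARS2 alone of the members lost its call. IARS, RARS, FARSA, the EPRS-named probe and YARS2 passed under all 14 alternatives run for single genes.

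For 9 amino acids both the cytosolic and the mitochondrial gene were measured, so their responses were compared within each animal. The cytosolic ratio was higher in all 4 animals for 6 of the 9 pairs and in 3 of 4 for the other 3. The difference was 1.75 ± 0.38 for arginine (RARS, 1.32, and RARS2, -0.43), 1.75 ± 0.47 for phenylalanine (FARSA and FARS2), 1.39 ± 0.55 for cysteine (CARS and CARS2) and 1.31 ± 0.39 for tryptophan (WARS and WARS2; cytosolic minus mitochondrial log2 ratio, SD, n = 4). It was 0.53 ± 0.29 for leucine and 0.41 ± 0.11 for tyrosine. For alanine (0.36 ± 0.32), asparagine (0.25 ± 0.32) and methionine (0.22 ± 0.34), 1 animal had a difference below 0. The order of the last pairs depends on the processing. With the scanner software's ratio, the mean of NARS (0.58) lay below that of NARS2 (0.66), and MARS (0.65) below MARS2 (0.68). The other pairs kept their order. In the authors' deposited table NARS (0.64) lay below NARS2 (0.69), while MARS (0.71) lay above MARS2 (0.68). A two-sided exact sign-flip permutation test over 4 animals cannot go below p = 0.125, which the first 6 pairs reached, and adjusted over the 9 pairs the lowest value was 0.188.

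**Figure D4:**
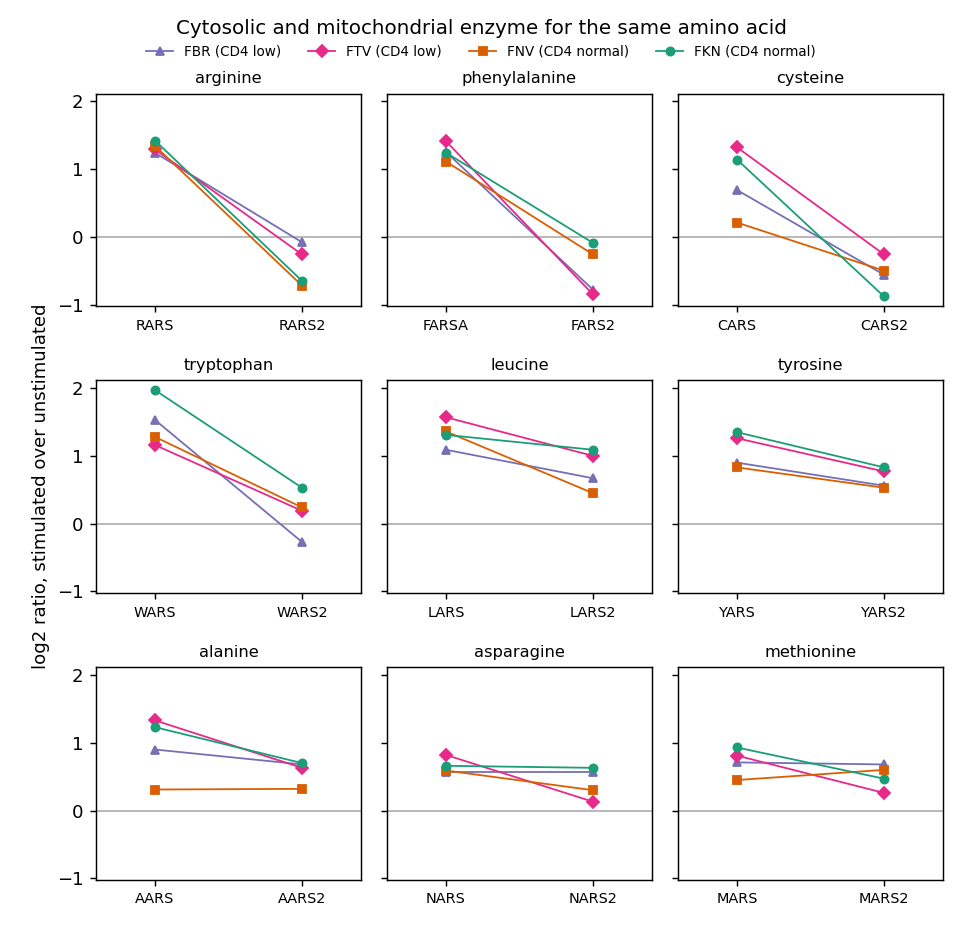
Log2 ratio of stimulated over unstimulated signal of the cytosolic gene and the mitochondrial gene for the same amino acid, in 9 panels, with a line for each of 4 animals. Lines fall steeply for arginine, phenylalanine, cysteine and tryptophan, where the mean difference is 1.31 to 1.75. For methionine, where it is 0.22, they fall in FKN and FTV, are nearly level in FBR and rise in FNV.

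Over the whole group, the cytosolic median ratio exceeded the mitochondrial one in every animal, at 0.87 and 0.25 in FBR, 1.26 and 0.19 in FTV, 0.59 and 0.24 in FNV, and 1.23 and 0.47 in FKN. The median over all features was between -0.01 and 0.00 in each animal. For the counts that follow, the shares over all tested features were 19.1% higher and 21.0% lower. By assembly, 6 of 6 genes of the multisynthetase complex rose, leaving out the EPRS-named probe, with median ratios of 1.10, 1.32, 1.21 and 1.37 in FBR, FTV, FNV and FKN. With that probe included, 6 of 7 rose and 1 fell, and the medians were 1.09, 1.29, 1.12 and 1.31. The 10 measured cytosolic genes outside the complex, of which 9 rose, had 0.78, 1.21, 0.45 and 1.19. The gap was widest in FNV, the animal scanned in the earlier batch. Outside the complex, AARS (0.31), CARS (0.21) and VARS (-0.49) were among the genes with their lowest ratio in FNV. In the complex, MARS (0.45) and DARS (0.15) were also lowest in FNV, while LARS, KARS and RARS were lowest in FBR. By catalytic class, 7 of 8 class I and 8 of 8 class II cytosolic genes rose, with medians of 1.20 and 0.80. The EPRS-named probe, which fell, was left out of that split. EPRS joins both classes in 1 protein, and whether the probe measures EPRS was not tested further.

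Other genes of the tRNA pathway were taken from lists. Of the scaffold genes of the multisynthetase complex, AIMP2 rose by 1.78 ± 0.26 and EEF1E1 by 1.46 ± 0.18, while AIMP1 had 0.16 ± 0.24 and did not pass (limma adjusted p = 0.000678, 0.000631 and 0.265; log2 ratios, SD over 4 animals). Among charging partners and export genes, 9 were measured, of which 3 rose, 2 fell and 4 did not pass, against 19.1% higher and 21.0% lower of all features, so the number that fell is near the background share. AARSD1, an editing protein that clears mischarged alanyl-tRNA, rose by 0.89, the tRNA exporter XPOT by 0.83 and SEPSECS, of selenocysteine synthesis, by 0.64 (1.02 with the scanner software's ratio). PSTK, a kinase of the selenocysteine route, fell by 0.20. The probe used for DTD1, the gene of an enzyme that removes D-amino acids from tRNA, fell by 0.40. Both annotation editions describe that probe as mitochondrial histidyl-tRNA synthetase, the product of HARS2, and it lies 24.5 kb from the HARS probe, while HARS2 is the gene next to HARS in the Caty_1.0 table. Its log2 ratio was -0.47, -0.36, -0.34 and -0.43 in FBR, FTV, FNV and FKN. The other probe with the name DTD1, described as the deacylase, had 0.10, 0.18, 0.10 and 0.40, a mean of 0.20 ± 0.14 (SD, n = 4), so the fall cannot be assigned to DTD1. This was seen after the lists were set, and the counts keep the gene name.

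Genes that modify tRNA rose in 13 of 15 measured members, with 1 lower and a median of 0.68, against 19.1% higher and 21.0% lower of all features. The leading genes were METTL1, which places the 7-methylguanosine mark (2.12 ± 0.72), the pseudouridine synthase PUS7 (1.87 ± 0.34), the cytosine methyltransferase NSUN2 (1.37 ± 0.08) and WDR4, the partner of METTL1 (1.36 ± 0.23; log2 ratio, SD, n = 4). ADAT2, a subunit of the tRNA adenosine deaminase, fell by 0.44. Of 22 measured genes of the ATF4 and amino acid response, a programme that in other settings includes many synthetase genes, 10 rose, 4 fell and 8 did not pass, with a median of 0.49. Set against the same 19.1% and 21.0% of all features, the 4 falls are no more than the background share.

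In that list the one-carbon enzyme MTHFD2 rose by 2.20, PSAT1 of serine synthesis by 1.97, the serine hydroxymethyltransferase SHMT2 by 1.25 and the amino acid transporter SLC7A5 by 0.91. The size for SLC7A5, well above background in 7 of 8 unstimulated channels, depends on the processing, at 2.06 with the scanner software's ratio, 1.37 at an offset of 10 and 1.88 in the authors' deposited table. The stress factor DDIT3 and the sensor of uncharged tRNA EIF2AK4 each fell by 0.51, the cystine transporter SLC7A11 by 0.50 and the kinase EIF2AK3 by 0.45. Interferon gamma targets rose in 10 of 11 measured members and 0 fell, against 19.1% higher and 21.0% lower of all features, with a median of 1.02. The chemokines CXCL11 (3.79), CXCL10 (3.13) and CXCL9 (2.95) and the GTPase GBP1 (2.62) had the largest means at the offset of 50. CXCL9, well above background in 6 of 8 unstimulated channels, came first with the scanner software's ratio (4.60, against 3.91 for CXCL11) and in the authors' deposited table (4.13, against 3.92). Without FKN, the calls of ADAT2, DDIT3, EIF2AK3, EIF2AK4, PSTK, SLC7A11 and SLC7A5 were lost. Without FBR, those of EIF2AK3, EIF2AK4, PSTK, SLC7A11 and SLC7A5 were lost, and without FTV those of ADAT2, PSTK, SLC7A11 and SLC7A5.

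**Figure D5:**
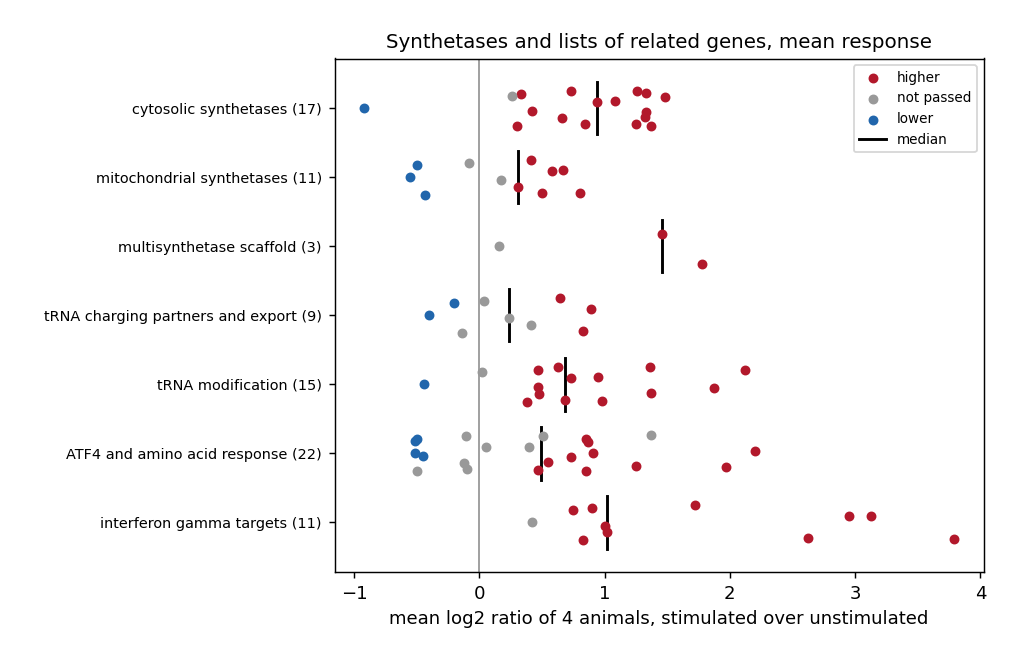
Mean log2 ratio of stimulated over unstimulated signal over 4 animals for the synthetase genes and for 5 lists of related genes, with the number measured in brackets, a point per gene, colour for the limma call and a black bar at the median. Medians are 0.94 for cytosolic synthetases, 0.31 for mitochondrial synthetases, 1.46 for the scaffold, 0.24 for charging partners, 0.68 for modification, 0.49 for the ATF4 list and 1.02 for the interferon gamma list.

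The second comparison asked whether synthetase genes differed between CD4-low and CD4-normal animals, 2 against 2. No member passed for the response, the unstimulated level or the stimulated level, and neither did any other feature (limma, 0% of 22894 features in each). At an unadjusted p under 0.05, 2 members differed in the response, against 2.14% of all features, and 0 members differed in the unstimulated or the stimulated level, against 1.69% and 2.00%. The 2 were FARS2, with a mean log2 ratio of -0.82 in CD4-low and -0.18 in CD4-normal animals (difference -0.64, SE 0.132, limma unadjusted p = 0.00669), and RARS2, with -0.17 and -0.68 (difference 0.51, SE 0.133, limma unadjusted p = 0.01505). Both had a limma adjusted p of 1, and they moved in opposite directions. The median difference in response, low minus normal, was 0.02 over the cytosolic and 0.07 over the mitochondrial members. Leaving out FKN left FNV as the lone CD4-normal animal. No spread among CD4-normal animals is measured in that fit, so its calls for members are not given.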

How the data were processed

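The authors deposited 2-colour scanner files with mean spot intensity and median background intensity, before any normalisation, and flags for outliers and weak signal. Per the file headers, the software was Agilent Feature Extraction 10.7.3.1. The same files hold a log10 ratio of red over green made by that software, per the file headers. A table of the whole series holds the authors' deposited log2 ratios per animal, made by steps not stated in the labels; 24 of 28 members had values for all 4 animals in it, 0 of them with the opposite sign.

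Ratios were computed with limma 3.58.1 under R 4.3.3, with statmod 1.5.0: normexp at an offset of 50, loess within arrays with control and outlier spots at weight 0, outliers (at most 51 spots per array) left out, spots averaged per probe, and the 2 dye orientations averaged per animal, so n = 4. Figures used Python 3.11.15 and matplotlib 3.10.9. No spot was saturated, and 0 pairs of the 32 channels were identical. Levels are log2 signals after Aquantile normalisation, averaged over the 4 channels of an animal and condition. Levels of different probes are not compared.

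Features were 1 probe per symbol, the brightest over the 16 arrays, plus every unnamed probe, kept where well above background on both ratio arrays in the channel of 1 condition in at least 2 animals; this left 22894. Names came from the newer of the 2 annotation editions, and for YARS and LARS2 from the older; FARSB, IARS2, TARS, TARS2, VARS2 and LOC706899 are named here from descriptions or gene names outside the rule. The response was tested with lmFit and eBayes against 0 and CD4 status as low minus normal, adjusted by Benjamini-Hochberg over all features. Per-animal values are given for the 5 largest and 3 smallest cytosolic and the 3 largest and 3 smallest mitochondrial responses, and per list for up to 4 rises and 4 falls. The members and lists were chosen with earlier results of these data known. The fits were tested on simulated data. The Caty_1.0 table was used only for gene names and gene order. Promoter motifs, planned as a description, were not analysed here. The time, antibody and purity values are those of the labels.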

Additional observations from a re-analysis of the deposited data

Results flagged for a closer look

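In 86 sets of 4 animals (the response, stimulated level and unstimulated level of 28 members, and 2 class medians), 4 had an animal far from the other 3 by Dixon's ratio, and chance alone marks about 1 set in 20. The stimulated log2 signal of AARS was 8.71 in FNV, against 10.41 to 10.50 in the others. The unstimulated log2 signal of WARS was 9.74 in FNV, against 11.26 to 11.43. The stimulated log2 signal of NARS was 14.14 in FNV, higher than the 13.07 to 13.23 of the others. The stimulated log2 signal of LARS2 was 9.76 in FTV, against 10.59 to 10.65. FNV accounts for 3 of the 4, and its arrays belong to the earlier scan batch, so animal and batch cannot be told apart. Its stimulated levels also include the dim self-self array, with 33.3% and 37.6% of spots well above background. The part of that array in the AARS and NARS values was not tested. No response of a member was among them.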

How the results depend on the processing

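No response of a single gene reversed under the alternatives. The order within some pairs for the same amino acid did reverse. With the scanner software's ratio, NARS (0.58) lay below NARS2 (0.66), and MARS (0.65) below MARS2 (0.68). The count of features past the threshold, 9179, was 4089 with median centring in place of loess. It was 4943 to 11516 with 1 animal left out, and 1849 on the self-self arrays with no replicate block. The 15 cytosolic genes that rose became 8 with median centring and 5 on the self-self arrays with no replicate block (13 with the pairing by animal as replicate block), and 10 to 16 with 1 animal left out. The 6 mitochondrial genes that rose became 1 with median centring and 2 with no replicate block (5 with the replicate block), and 4 to 6 with 1 animal left out, while the number that fell ranged from 0 to 4, the highest with the HARS2-described probe counted. The cytosolic median, 0.94, was 0.81 to 1.15 with 1 animal left out. The mitochondrial median, 0.31, was 0.66 with the scanner software's ratio, 0.56 at an offset of 10, 0.46 with the older annotation edition (8 genes) and 0.44 in the authors' deposited table (10 genes), and 0.23 to 0.37 with 1 animal left out. Within the later scan batch the medians were 1.15 and 0.37, against 0.59 and 0.24 in FNV. The cause of these differences was not tested. For CD4 status, 0 to 7 features passed for the unstimulated and 0 to 4354 for the stimulated level with 1 animal left out, the lone animal of a status being assumed to vary like the others, and 0 passed under the other alternatives and, for the response, under all. The pairing by animal comes from the labels and is inside each ratio. Of 391 values of single members under 14 alternatives, 326 kept their direction and side of the threshold, 63 lost the call and 2, both of VARS, gained one. Dim probes moved with the offset: EARS2, at 6 of 8 channels above background in each condition, was 0.31 at an offset of 50, 0.59 at 10 and 1.19 with the scanner software's ratio. Promoter motifs were not run.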
